A study of Rattus norvegicus with 8 samples.

Results

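The genes described are 3 metallothioneins (Mt1, Mt2A and Mt3), the zinc-sensing transcription factor Mtf1, the zinc exporter Slc30a1 and the zinc importers Slc39a8, Slc39a14 and Slc39a10. They were taken by symbol from the 18090 genes of the deposited expression table, in which the metallothionein 1 gene is listed as Mt1, and 8 of 8 were found. The 8 RNA libraries came from abdominal aortas of rats (Rattus norvegicus) with the genotype WT. In the FeCl3 group (n = 4) a filter paper soaked in 10% iron chloride lay on the outside of the vessel for 5 min, a standard way to induce a thrombus. The control group (n = 4) received 0.9% saline for 5 min. The replicates are described as biologically independent. The strain, age and sex of the rats and the time between exposure and harvest are not given in the sources used here. Expression is in FPKM, the number of fragments of a gene scaled by its length and by the total of the library, as computed by the authors.

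Metallothioneins are small cysteine-rich proteins that bind zinc and copper and react with oxidants. In mammals the transcription factor MTF1 senses free zinc through its zinc fingers, binds metal response elements in metallothionein promoters and in the promoter of Slc30a1, and raises their transcription; glucocorticoids and interleukin-6 signalling are also known inducers of Mt1 and Mt2A. Proteins of the Slc30 (ZnT) family move zinc out of the cytosol, and proteins of the Slc39 (ZIP) family move it in; the products of Slc39a8 and Slc39a14 also carry iron and manganese.

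Promoter windows of 300 bases, which run from 250 bases before the annotated start to 50 bases after it, were taken from RefSeq for the rat assembly GRCr8, and 7 of the 8 genes had one (Mt1, Mt2A, Mt3, Mtf1, Slc30a1, Slc39a8 and Slc39a10). The windows of the metallothioneins and Slc30a1 are shown, and they hold the letters of the element that MTF1 binds. The Mtf1 window holds such letters too and is not shown. Capitals mark the core TGCACNC or TGCGCNC on either strand, and each sequence is written 5′ to 3′ in the direction of the transcript. In GRCr8, the Mt1 window lies at chr19:10832926-10833225 (minus strand), the Mt2A window at chr19:10838659-10838958 (minus strand), the Mt3 window at chr19:10856031-10856330 (minus strand) and the Slc30a1 window at chr13:106021769-106022068 (plus strand).
Mt1: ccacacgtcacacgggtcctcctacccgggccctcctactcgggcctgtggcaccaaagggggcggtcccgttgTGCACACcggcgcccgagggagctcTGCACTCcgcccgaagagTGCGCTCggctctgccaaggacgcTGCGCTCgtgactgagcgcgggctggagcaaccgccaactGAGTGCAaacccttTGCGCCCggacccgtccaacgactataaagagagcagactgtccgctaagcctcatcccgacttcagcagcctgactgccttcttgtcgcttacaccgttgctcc
Mt2A: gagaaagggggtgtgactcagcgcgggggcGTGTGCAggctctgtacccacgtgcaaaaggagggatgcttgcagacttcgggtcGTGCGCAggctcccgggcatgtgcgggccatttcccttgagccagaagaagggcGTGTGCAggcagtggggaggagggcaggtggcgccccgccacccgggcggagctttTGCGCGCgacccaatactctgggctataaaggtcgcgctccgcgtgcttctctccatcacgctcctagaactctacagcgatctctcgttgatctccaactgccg
Mt3: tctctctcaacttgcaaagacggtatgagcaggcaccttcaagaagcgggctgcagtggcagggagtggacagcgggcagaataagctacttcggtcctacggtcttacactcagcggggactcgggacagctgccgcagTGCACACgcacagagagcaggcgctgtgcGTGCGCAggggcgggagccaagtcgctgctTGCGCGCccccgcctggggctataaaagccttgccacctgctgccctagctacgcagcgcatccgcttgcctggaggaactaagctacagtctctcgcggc
Slc30a1: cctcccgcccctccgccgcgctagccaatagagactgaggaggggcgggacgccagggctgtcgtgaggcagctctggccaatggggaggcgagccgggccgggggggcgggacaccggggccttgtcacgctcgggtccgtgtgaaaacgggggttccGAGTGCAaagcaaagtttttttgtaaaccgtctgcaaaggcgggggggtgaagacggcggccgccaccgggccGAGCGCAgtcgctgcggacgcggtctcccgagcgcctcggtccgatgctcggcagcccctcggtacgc

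The Mt1 window held 6 of these cores, 5 on the transcript strand and 1 on the other. The Mt2A window held 4 cores and the Mt3 window 3, while Slc30a1 and Mtf1 had 2 each and Slc39a8 and Slc39a10 had 0. Among all 33469 RefSeq promoter windows of the same length, 24.2% held at least 1 core, 6.36% at least 2, 1.68% at least 3, 0.439% at least 4 and 0.0388% at least 6. The core nearest to the start lay 55 bases before it in both Mt1 and Mt2A. A match of letters is a description of the window and was not measured as binding here. The antioxidant response core TGACNNNGC, searched on both strands, occurred once or more in 12.1% of windows; it was found 1 time each in Mt1, Mt2A, Slc30a1 and Slc39a8, 2 times in Mtf1 and 0 times in Mt3 and Slc39a10. Mt1, Mt2A and Mt3 are consecutive genes on chromosome 19 in the RefSeq annotation.

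**Figure D1:**
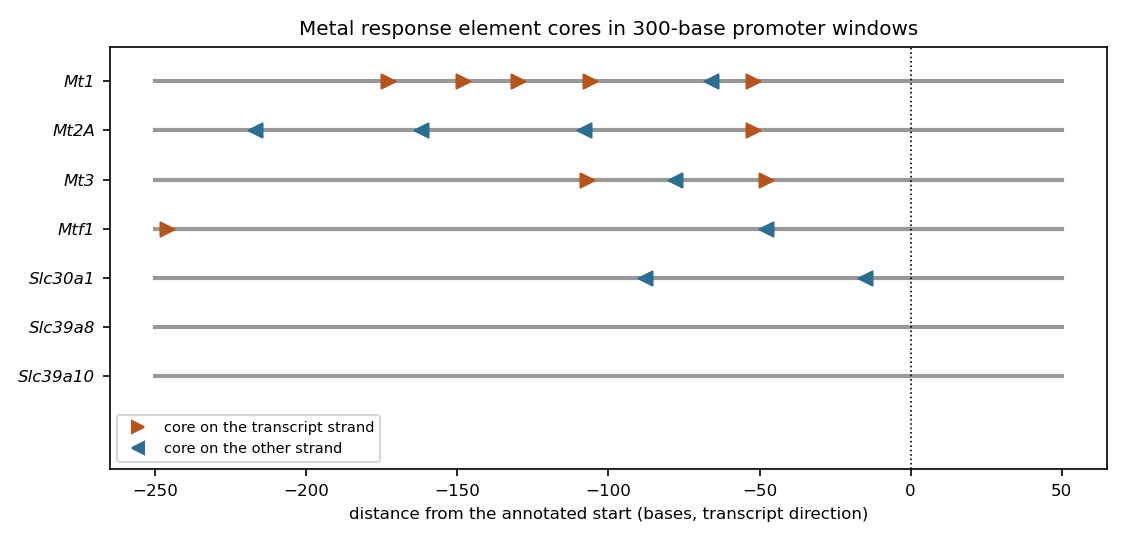
Position of each metal response element core in the 7 promoter windows, in bases from the annotated start along the transcript direction; right-pointing marks are cores on the transcript strand and left-pointing marks are cores on the other strand. Mt1 has 6 marks, Mt2A 4, Mt3 3, Mtf1 and Slc30a1 2 each, and Slc39a8 and Slc39a10 have 0.

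Totals recovered from the steps of the FPKM values were 24304434 to 30283292 fragments per library. Haemoglobin genes took 24.7%, 16.4%, 34.1% and 19.9% of the fragments in FeCl3 replicates 1 to 4, and 1.63%, 1.30%, 1.49% and 16.5% in saline replicates 1 to 4, so that the fourth saline library was close to the lowest FeCl3 library in its share. Saline replicate 1 stood apart with heat shock genes summing to 18900 FPKM, against 888 to 1347 FPKM in the FeCl3 libraries and 1212 to 2147 FPKM in the other saline libraries, and with monocyte and macrophage markers at 8.68 FPKM. Smooth muscle markers, the defining genes of the vessel wall, were above 0 in every library (6 of 6 markers) and summed to 3685 to 10602 FPKM after FeCl3 and 4739 to 25398 FPKM after saline. All 8 genes passed the filter of at least 1 FPKM in at least 4 of the 8 libraries, as did 11921 genes in all. In the limma fit across these genes on log2(FPKM + 1), 0 genes passed an adjusted p of 0.05 (0% of 11921; the smallest adjusted p was 0.245), and 1981 (16.6%) had an unadjusted p under 0.05. Most tested genes (70.2%) had a negative log2 fold change, and their median was -0.25.

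Mt1 and Mt2A stood at higher levels in 3 of 4 FeCl3 aortas than in any saline aorta, while the third FeCl3 aorta did not: it held the lowest FPKM of all 8 as deposited and lay within the saline range with libraries scaled by the median of ratios over genes. Mt1 measured 101.2, 53.8, 19.3 and 100.2 FPKM in FeCl3 replicates 1 to 4, and 26.0, 24.9, 26.4 and 28.6 FPKM in saline replicates 1 to 4. Its mean was 68.6 ± 39.6 FPKM after FeCl3 and 26.5 ± 1.59 FPKM after saline (SD, n = 4 each), and the coefficient of variation was 57.8% after FeCl3 and 6.01% after saline. The 2 groups overlapped through FeCl3 replicate 3 alone. With median-of-ratios scaling Mt1 was 104.4, 57.9, 25.9 and 100.1 in FeCl3 replicates 1 to 4, and 28.1, 20.5, 21.2 and 26.7 in saline replicates 1 to 4, so that the saline aortas were less alike than in FPKM as deposited. The log2 fold change was 1.09 ± 0.49 (SE; 95% interval -0.02 to 2.19), which did not pass the threshold in limma (adjusted p = 0.304). A two-sided exact permutation test of the log2(FPKM + 1) values gave p = 0.143, where 4 against 4 can give no less than 0.0286.

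Mt2A, the main stress-inducible metallothionein alongside Mt1, was distributed over the aortas in much the same way. It measured 98.2, 106.4, 19.3 and 130.1 FPKM in FeCl3 replicates 1 to 4, against 48.5, 27.5, 33.8 and 34.1 FPKM in saline replicates 1 to 4. FeCl3 replicate 3 was again the lowest of all 8 in FPKM as deposited, and the other 3 FeCl3 aortas were again above every saline aorta. With median-of-ratios scaling it was 25.9, above saline replicate 2 at 22.7. The means were 88.5 ± 48.1 FPKM after FeCl3 and 36.0 ± 8.90 FPKM after saline (SD, n = 4 each). The log2 fold change was 1.01 ± 0.56 (SE; 95% interval -0.26 to 2.28; limma adjusted p = 0.379; two-sided exact permutation p = 0.143), so this difference too did not pass. In a bulk tissue, fewer cells of a type and less RNA per cell cannot be told apart.

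The size of both differences rested in part on the third FeCl3 library. Without it, the log2 fold change of Mt1 was 1.59 and that of Mt2A was 1.62 (limma adjusted p = 0.453 for each; the unadjusted p were 0.000515 and 0.000295). Leaving out another library gave values down to 0.81 for Mt1 (without FeCl3 replicate 1) and 0.73 for Mt2A (without FeCl3 replicate 4). The unadjusted limma p with any other single library left out were 0.079 to 0.146 for Mt1 and 0.097 to 0.259 for Mt2A. The smallest p were thus those of the fit without FeCl3 replicate 3, the FeCl3 library lowest in both genes. Leaving out FeCl3 replicate 3 raises both differences by construction, so these unadjusted p are no test of an effect. This library had the largest haemoglobin share of the 8, and among the FeCl3 libraries the lowest summed FPKM of fibroblast markers (580, against 978 to 2987), of white adipocyte markers (103, against 727 to 2379) and of monocyte and macrophage markers (208, against 290 to 688). Over the saline libraries these sums were 446 to 2331 for fibroblast markers (6 of 6 found, none at 0), 0.322 to 1710 for white adipocyte markers (5 of 5 found, with Lep, Cidec and Retn at 0 in saline replicate 1) and 8.68 to 479 for monocyte and macrophage markers (6 of 6 found, with Cd68 at 0 in saline replicate 1). The part of these cells in the metallothionein values was not tested. The fourth saline library, with 16.5% haemoglobin fragments, had 28.6 FPKM of Mt1 and 34.1 FPKM of Mt2A, close to the other saline libraries. Saline replicate 1, with few leukocyte and adipocyte transcripts, had 26.0 FPKM of Mt1 and 48.5 FPKM of Mt2A, the highest Mt2A value of the saline group.

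**Figure D2:**
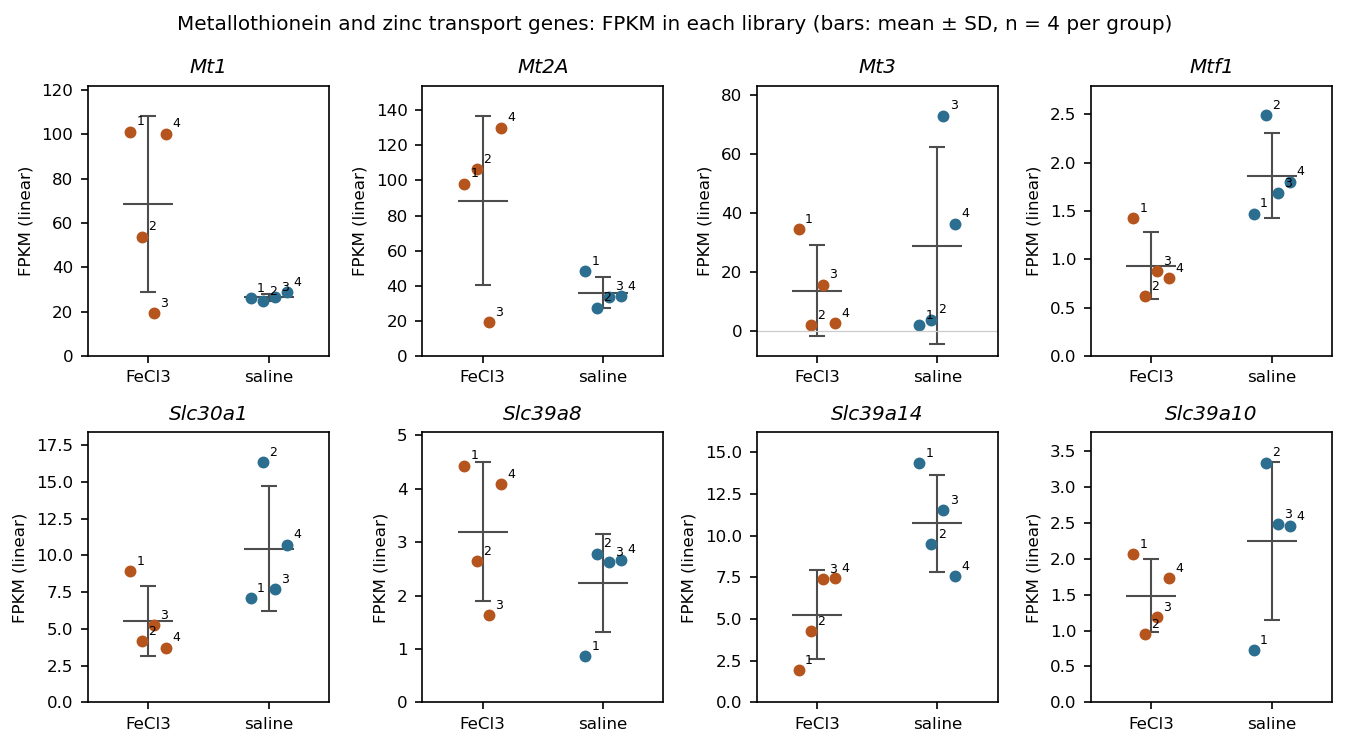
FPKM of the 8 genes in every library, 1 panel per gene with its own linear axis; points are single aortas, with FeCl3 left of saline, and the bar and whiskers give the mean and SD (n = 4 each). Mt1 and Mt2A show 3 high FeCl3 points and 1 at 19.3 FPKM, and Mtf1 and Slc39a14 show FeCl3 points that lie below all saline points.

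The ratio between the 2 genes differed little between groups. Mt2A over Mt1 was 0.970, 1.98, 1.00 and 1.30 in FeCl3 replicates 1 to 4, and 1.87, 1.11, 1.28 and 1.19 in saline replicates 1 to 4. The ranges overlapped almost fully. Mt1 set against the exporter Slc30a1, the other textbook MTF1 target, gave ratios of FPKM of 11.3, 12.9, 3.65 and 26.9 in FeCl3 replicates 1 to 4, and 3.67, 1.52, 3.42 and 2.67 in saline replicates 1 to 4. FeCl3 replicate 3 lay inside the saline range and the other 3 lay at least 3-fold above its highest value. A ratio within a library does not depend on the scaling of that library.

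**Figure D3:**
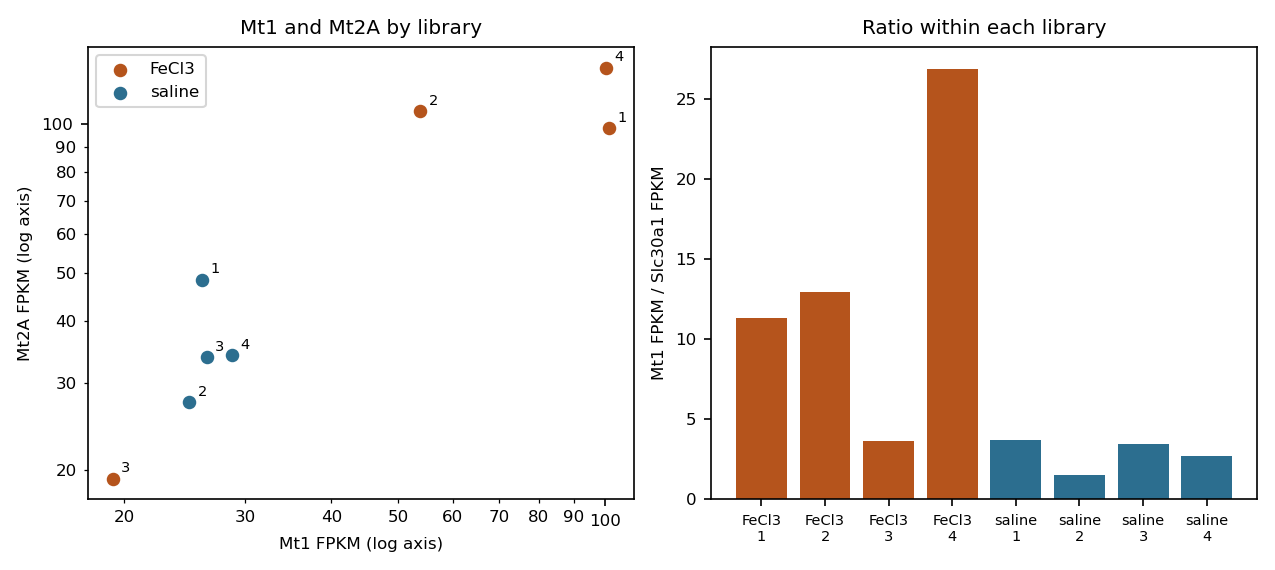
Left, Mt2A against Mt1 in FPKM on log axes, 1 point per aorta, with the replicate number beside it; right, bars of the ratio of Mt1 FPKM to Slc30a1 FPKM in each library, FeCl3 before saline. FeCl3 replicate 3 lies at the lower left corner, below all saline aortas in FPKM as deposited, and its ratio of 3.65 is near the saline values of 1.52 to 3.67.

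Mt3, the metallothionein best known from neurons, varied far more among aortas of 1 group than between the groups. It measured 34.7, 1.94, 15.7 and 2.51 FPKM in FeCl3 replicates 1 to 4, against 2.02, 3.83, 73.1 and 36.5 FPKM in saline replicates 1 to 4. High and low libraries occurred in both groups, with the highest in saline replicate 3 and the lowest in FeCl3 replicate 2. The means were 13.7 ± 15.3 FPKM after FeCl3 and 28.9 ± 33.5 FPKM after saline (SD, n = 4 each), and the log2 fold change was -0.68 ± 1.19 (SE; 95% interval -3.39 to 2.03; limma adjusted p = 0.783). Leaving out saline replicate 3 turned the sign to 0.11. Its libraries were not ordered as those of Mt1 were, and Mt3 over Mt1 was 0.343, 0.0361, 0.815 and 0.0250 in FeCl3 replicates 1 to 4, and 0.0778, 0.154, 2.77 and 1.27 in saline replicates 1 to 4.

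The genes whose log2(FPKM + 1) over the 8 libraries was most like that of Mt3, by Pearson r over all tested genes, were Syt4, Gpx2, Scg5, Bmerb1 and Elavl2 (r = 1.00 for each when rounded); this search was added after the Mt3 values were seen. Syt4 and Scg5 act in vesicles and secretory granules, and Elavl2 encodes a neuronal RNA-binding protein. A list of 9 genes of sympathetic neurons and chromaffin cells, chosen after these values were seen (Th, Dbh, Chga, Chgb, Phox2a, Stmn2, Tubb3, Snap25 and Prph), summed to 945, 3.16, 109.6 and 2.94 FPKM in FeCl3 replicates 1 to 4, and to 0.215, 36.3, 2397 and 655 FPKM in saline replicates 1 to 4. Each of the 9 had an r with Mt3 of 0.907 to 0.994 (7 of the 9 passed the filter). The share of all tested genes with such an r was not computed. Summed Schwann cell markers were also highest in FeCl3 replicate 1 and saline replicates 3 and 4, at 758, 821 and 1140 FPKM. The other libraries had 95.7 to 324 FPKM of these markers, so the pattern is not particular to the 9 genes. The r values with Mt3 are correlations over 8 libraries and are given as a description. Dbh, the enzyme that makes noradrenaline from dopamine, stood at 184, 0, 5.84 and 0.151 FPKM in FeCl3 replicates 1 to 4, and at 0, 5.76, 496 and 107 FPKM in saline replicates 1 to 4. Mt3 itself was above 1 FPKM in all 8 libraries, including those with Dbh at 0.

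**Figure D4:**
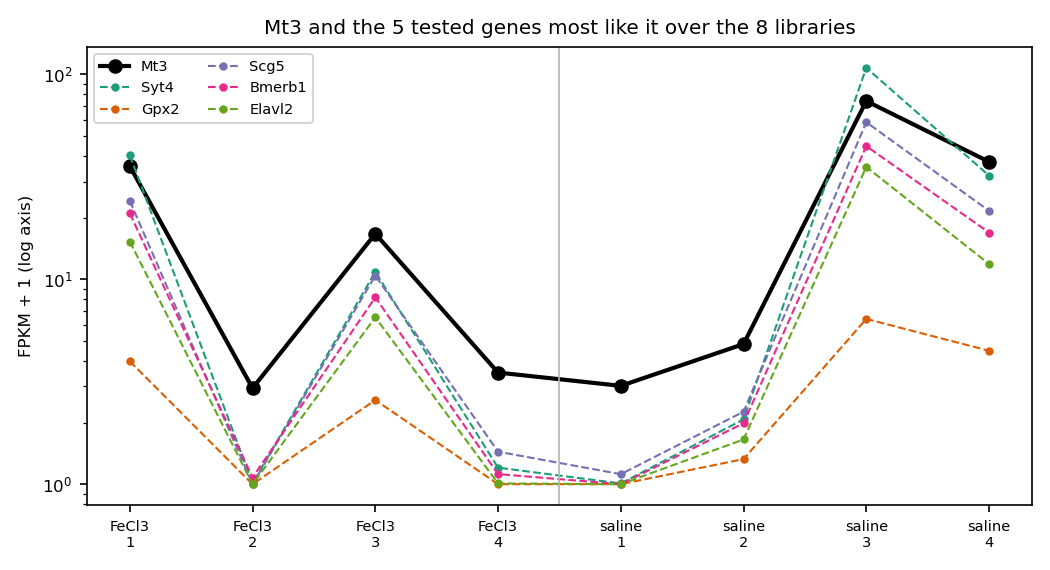
FPKM + 1 on a log axis in each library, FeCl3 replicates 1 to 4 left of saline replicates 1 to 4, for Mt3 (thick solid line) and for Syt4, Gpx2, Scg5, Bmerb1 and Elavl2 (thin dashed lines). All lines peak in saline replicate 3, where Mt3 measured 73.1 FPKM, and are also high in FeCl3 replicate 1 and saline replicate 4.

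Mtf1, the zinc sensor, was expressed at a low level and lay lower in every FeCl3 aorta than in any saline aorta. Its FPKM values were 1.43, 0.619, 0.875 and 0.805 in FeCl3 replicates 1 to 4, against 1.47, 2.49, 1.69 and 1.80 in saline replicates 1 to 4. The gap between the groups was narrow, from 1.43 FPKM in the highest FeCl3 library to 1.47 FPKM in the lowest saline library. The means were 0.931 ± 0.348 FPKM after FeCl3 and 1.86 ± 0.440 FPKM after saline (SD, n = 4 each). The log2 fold change was -0.57 ± 0.22 (SE; 95% interval -1.07 to -0.07); it did not pass in limma (adjusted p = 0.270), although the two-sided exact permutation p of 0.0286 was the smallest that 4 against 4 can give. Among all tested genes, 8.75% were lower in every FeCl3 library than in any saline library. The share was 18.2% in the longest of 4 equal length classes, which holds Mtf1. With median-of-ratios scaling, the log2 fold change was -0.41 and the groups overlapped. Because Mtf1 was near the pseudocount of 1, its value was -0.96 with a pseudocount of 0.1, -1.03 with 0.01 and -1.02 with voom on recovered fragments, and it passed in none of these.

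Slc30a1, the zinc exporter of the plasma membrane (ZnT1), averaged 5.52 ± 2.37 FPKM after FeCl3 and 10.5 ± 4.23 FPKM after saline (SD, n = 4 each). Single aortas had 8.93, 4.16, 5.28 and 3.73 FPKM in FeCl3 replicates 1 to 4, and 7.07, 16.3, 7.71 and 10.7 FPKM in saline replicates 1 to 4. FeCl3 replicate 1 lay within the saline range, and the other 3 FeCl3 aortas lay below it. The log2 fold change was -0.81 ± 0.33 (SE; 95% interval -1.56 to -0.05; limma adjusted p = 0.281; two-sided exact permutation p = 0.0857), and it was -0.55 with median-of-ratios scaling. In these aortas the fitted difference of the exporter thus had the opposite sign to that of Mt1, and neither passed the test. Whether Slc30a1 and Mt1 differed in their fold change was not tested.

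Slc39a14 (ZIP14), which in mice carries zinc and iron not bound to transferrin into liver cells, was the importer with the largest fitted difference. It measured 1.95, 4.26, 7.38 and 7.44 FPKM in FeCl3 replicates 1 to 4, against 14.4, 9.49, 11.5 and 7.59 FPKM in saline replicates 1 to 4. The groups did not overlap, but FeCl3 replicates 3 and 4 lay next to the blood-rich saline replicate 4. Of all tested genes 8.75% were likewise lower without overlap. In the longest of 4 equal length classes, which holds Slc39a14, that share was 18.2%. The means were 5.26 ± 2.66 FPKM after FeCl3 and 10.7 ± 2.90 FPKM after saline (SD, n = 4 each), and the log2 fold change was -0.995 ± 0.37 (SE; 95% interval -1.84 to -0.15; limma adjusted p = 0.263; two-sided exact permutation p = 0.0286). With median-of-ratios scaling it was -0.74 and the groups overlapped. Summed smooth muscle markers, lowest in FeCl3 replicate 1 at 3685 FPKM and highest in saline replicate 1 at 25398 FPKM, were at their extremes in the same libraries as Slc39a14, and their part in its values was not tested.

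Slc39a8 (ZIP8), the closest relative of Slc39a14, did not share its pattern. Its values were 4.43, 2.64, 1.64 and 4.08 FPKM in FeCl3 replicates 1 to 4, and 0.865, 2.78, 2.63 and 2.67 FPKM in saline replicates 1 to 4. FeCl3 replicates 1 and 4 lay above every saline library, and saline replicate 1 lay below all others. The log2 fold change was 0.37 ± 0.33 (SE; 95% interval -0.38 to 1.13; limma adjusted p = 0.572), with means of 3.20 ± 1.30 FPKM after FeCl3 and 2.24 ± 0.917 FPKM after saline (SD, n = 4 each). Without saline replicate 1 it was 0.13, and with voom on recovered fragments 0.60. Within libraries, Slc39a14 over Slc39a8 was 0.441, 1.61, 4.51 and 1.82 in FeCl3 replicates 1 to 4, and 16.6, 3.41, 4.39 and 2.84 in saline replicates 1 to 4, which overlap through FeCl3 replicate 3.

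Slc39a10 (ZIP10), an importer whose gene MTF1 represses in mouse cells, had 2.06, 0.945, 1.19 and 1.73 FPKM in FeCl3 replicates 1 to 4, against 0.723, 3.33, 2.48 and 2.45 FPKM in saline replicates 1 to 4. Apart from saline replicate 1, the lowest of all 8, each saline aorta lay above the FeCl3 aortas. The log2 fold change was -0.33 ± 0.32 (SE; 95% interval -1.06 to 0.39; limma adjusted p = 0.603), and without saline replicate 1 it was -0.61.

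Ranked by mean FPKM, which is a level per length, Mt2A came first in both groups. After FeCl3, Mt2A and Mt1 (88.5 and 68.6 FPKM) were followed by Mt3 (13.7), Slc30a1 (5.52), Slc39a14 (5.26), Slc39a8 (3.20), Slc39a10 (1.48) and Mtf1 (0.931). The saline aortas had Mt2A (36.0) ahead of Mt3 (28.9), Mt1 (26.5), Slc39a14 (10.7), Slc30a1 (10.5), Slc39a10 (2.25), Slc39a8 (2.24) and Mtf1 (1.86). After FeCl3 the ranges of mean ± SD overlapped for every pair of neighbours in this order. After saline they overlapped for all neighbours except Mt1 and Slc39a14, and Slc30a1 and Slc39a10.

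Of the 8 genes, 0 were called and 3 (Mtf1, Slc30a1 and Slc39a14) had an unadjusted limma p under 0.05, all with negative fold changes, against 12.2% of all tested genes in that direction. Negative fold changes were found for 5 of the 8 (70.2% of all tested genes), and the median log2 fold change of the 8 was -0.45, against -0.25 for all. In 2 of the 8 the groups did not overlap with FeCl3 lower (8.75% of all tested genes), and in 0 with FeCl3 higher (1.06%). In FPKM as deposited, no member had an unadjusted p under 0.05 with a higher level after FeCl3 (0 of 8, against 4.42% of all tested genes). The background depended on gene length: with the tested genes split by length into 4 equal classes, 2.11% of the shortest class were lower in every FeCl3 library, against 18.2% of the longest class. Mt1, Mt2A and Mt3 (recovered lengths of 389, 383 and 376 bases) belong to the shortest class, with a median log2 fold change of 0.04, and Mtf1, Slc39a10 and Slc39a14 (5901, 8034 and 8335 bases) to the longest, with a median of -0.46.

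The scaling of the libraries set part of this count. With median-of-ratios scaling, 5 of the 8 genes had negative fold changes (50.7% of all tested genes), and the groups did not overlap in 0 of the 8 in either direction (3.31% of all tested genes lower after FeCl3 and 4.65% higher). Mt1 was then 1.36 and Mt2A 1.29 on the log2 scale, against 0.37 and 0.29 with TPM scaling. With median-of-ratios scaling their unadjusted limma p were 0.0117 and 0.0370 (adjusted p = 0.283 and 0.336). Those of Mtf1, Slc30a1 and Slc39a14 were 0.0705, 0.117 and 0.113. Of all 11921 tested genes, 1162 then had an unadjusted p under 0.05 with a higher level after FeCl3, and 472 with a lower level. Scaled to TPM, in which the length-scaled values of each library sum to the same total and in which haemoglobin takes a large share of each FeCl3 library, Mtf1, Slc30a1 and Slc39a14 fell (3 of 8, against 27.6% of all tested genes called and 27% called lower), by 1.17, 1.52 and 1.72 on the log2 scale with a limma adjusted p of 0.0408 for each. Without the blood-rich saline replicate 4, 1.34% of all tested genes were called and 0 of the 8.

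The wider zinc transporter families were examined as a whole. The authors' table lists 23 Slc30 and Slc39 genes. Of the 16 that passed the filter, 14 had negative fold changes (87.5%, against 70.2% of all tested genes), and 0 passed limma's adjusted threshold. In 6 of the 16 every FeCl3 library was lower than any saline library (37.5%, against 8.75% of all tested genes). These were Slc30a4, Slc30a7, Slc39a1, Slc39a9, Slc39a13 and Slc39a14. The median log2 fold change of the 16 was -0.42, against -0.25 for all tested genes. With median-of-ratios scaling it was -0.16, against -0.007 for all, with 11 of 16 negative (50.7% of all tested genes). With that scaling 2 were lower without overlap, Slc30a7 and Slc39a9 (3.31% of all tested genes). All 6 tested exporters had negative fold changes (70.2% of all tested genes), with a median of -0.50. Slc30a9, the most abundant exporter, averaged 23.0 ± 4.43 FPKM after FeCl3 and 31.2 ± 6.98 FPKM after saline (SD, n = 4 each), a difference of -0.42 on the log2 scale (limma adjusted p = 0.375).

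Of the 10 tested importers 8 had negative fold changes (70.2% of all tested genes), with a median of -0.38, against -0.25 for all tested genes. Slc39a7, which releases zinc from the endoplasmic reticulum, was the most abundant at 41.4 ± 9.81 FPKM after FeCl3 and 50.3 ± 10.6 FPKM after saline (SD, n = 4 each), a difference of -0.28 on the log2 scale (limma adjusted p = 0.572). Slc39a9, a Golgi and plasma membrane importer, measured 6.54, 5.93, 7.21 and 12.5 FPKM in FeCl3 replicates 1 to 4, against 13.8, 16.1, 15.6 and 16.2 FPKM in saline replicates 1 to 4. Its groups did not overlap, and the log2 fold change of -0.91 ± 0.25 (SE) had an adjusted p of 0.245 in limma. Slc30a7, which loads zinc into the early secretory pathway, had 3.75, 5.05, 4.05 and 5.83 FPKM in FeCl3 replicates 1 to 4, against 7.62, 7.05, 9.39 and 7.12 FPKM in saline replicates 1 to 4, a difference of -0.64 ± 0.21 on the log2 scale (SE; limma adjusted p = 0.251). Slc39a9, Slc30a7, Slc30a4, Slc39a1 and Slc39a13 were named after their values were seen.

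**Figure D5:**
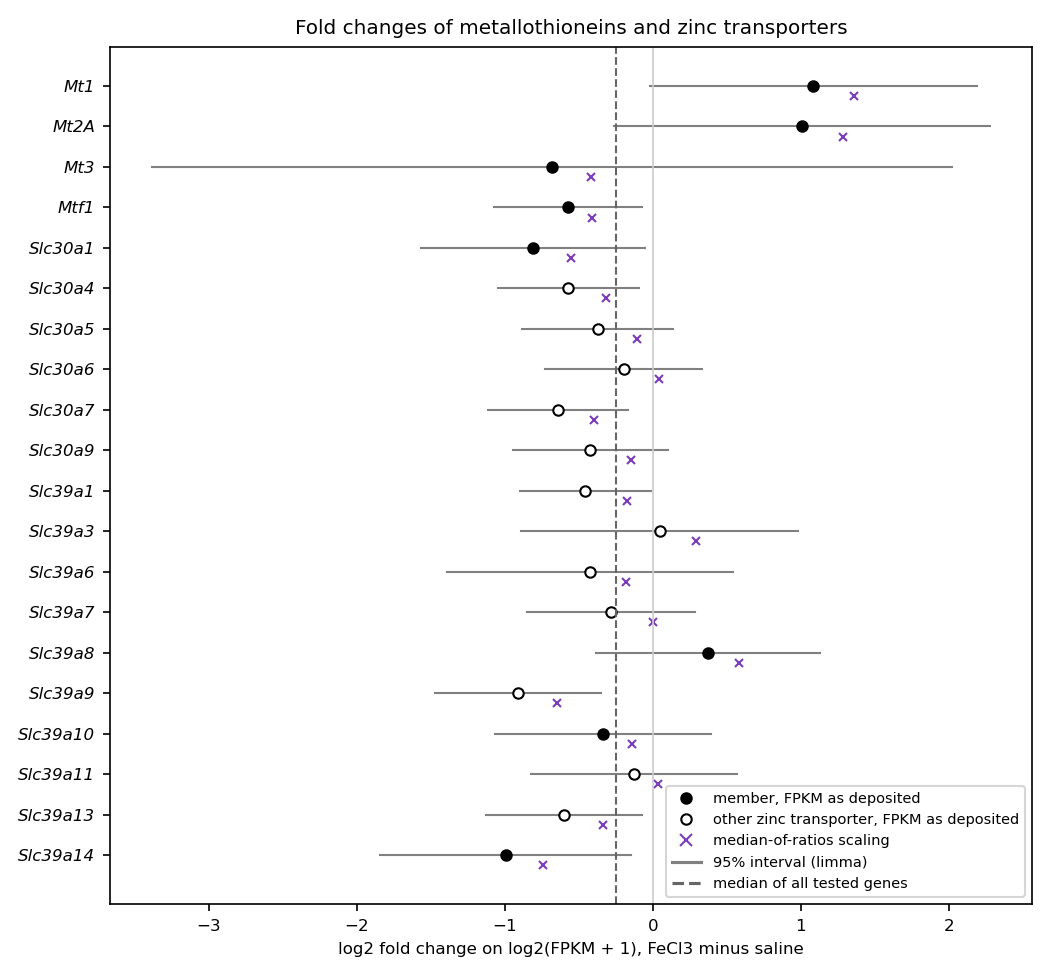
Log2 fold change, FeCl3 minus saline on the log2(FPKM + 1) scale, of the 8 genes (filled points) and the other tested zinc transporters (open points), with 95% intervals from limma as lines; crosses give the value after median-of-ratios scaling and the dashed line the median of all tested genes, -0.25. The intervals of Mt1 and Mt2A reach from -0.02 and -0.26 to 2.19 and 2.28, and those of Mtf1, Slc30a1 and Slc39a14 lie below 0, with 0 genes passing the adjusted threshold.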

How the data were processed

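PolyA RNA of rat abdominal aorta was sequenced in 8 libraries (mirVana extraction and a VAHTS Universal V6 library kit, per the labels). The FPKM values, 1 per gene and library, were deposited by the authors; fastp, HISAT2, HTSeq and the genome build mRatBN7.2 are named in the submitters' processing notes, and versions, annotation and strand setting are not given in the sources used here. Per the labels, the libraries formed 1 batch.

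The genes and lists described here were chosen with earlier results of these data known. Genes with at least 1 FPKM in at least 4 libraries (11921 of 18090) were fitted with limma 3.58.1 in R 4.3.3 on log2(FPKM + 1), with a mean-variance trend and Benjamini-Hochberg adjustment over all of them at 0.05, so fold changes of low genes are understated. Single genes were also compared with a two-sided exact permutation test of the difference in mean log2(FPKM + 1) over 70 arrangements.

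Depth is not stated in the table, so library totals and gene lengths were recovered from the steps of low FPKM values; 100% of genes gave whole fragments within a tolerance of 0.02, and the 8 genes had 20 to 3629 fragments per library. The count of Hbb was doubled to match the sum, and its length is uncertain accordingly. Each gene named beyond the 8 is the most abundant or the most changed tested gene of its list, or one of the 5 genes outside the 8 most like Mt1 or Mt2A, except where stated. Of 176 list entries 168 were found. Alternatives were other pseudocounts, filters, scalings, model options, voom on recovered fragments, and leaving out libraries. The Mt1m row, a pseudogene in RefSeq with 0.704, 0, 0 and 1.69 FPKM after FeCl3 and 0.261, 0, 0 and 0.104 FPKM after saline, may share reads with Mt1, so Mt1 values are uncertain to that extent. Promoter windows came from GRCr8, another build than the authors', and no coordinates were converted.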

Additional observations from a re-analysis of the deposited data

Results flagged for a closer look

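In saline replicate 1 Slc39a8 measured 0.865 FPKM, while the nearest other saline aorta had 2.63 FPKM. The gap was 0.918 of the whole range of the saline group, above Dixon's critical value for 4 samples. This was 1 of 16 groups tested, and chance alone flags about 1 in 20. The same library had the lowest Slc39a10 value of the 8, 0.723 FPKM, the largest sum of heat shock genes and the lowest summed macrophage and endothelial markers, and the part of these in the Slc39a8 value was not tested.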

How the results depend on the processing

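Over 22 alternatives and 8 genes, 171 of 176 fold changes kept their direction and their side of the threshold. The exceptions were 4 with TPM scaling and 1 with a library left out. In 19 of the 22 alternatives 0 of all tested genes were called, so there the side of the threshold could not change. The size of the fold change did vary, from 0.37 to 1.59 for Mt1 and from 0.29 to 1.62 for Mt2A. TPM scaling, in which haemoglobin takes a larger share of each total than in FPKM, moved the median log2 fold change of all genes to -0.90. It moved the count of called genes to 3288 (27.6% of 11921, with 65 higher and 3223 lower). Under it Mtf1 (-1.17), Slc30a1 (-1.52) and Slc39a14 (-1.72) were called (limma adjusted p = 0.0408 each) and Slc39a8 turned to -0.14. Mt1 was 0.37 and Mt2A 0.29 with TPM scaling. Relative to the median of all genes, Mt1 was 1.27 to 1.38 and Mt2A 1.19 to 1.30 over 5 scalings. Scaling each library by a factor moves most genes by nearly the same amount, so these relative values stay close largely by construction. They are no test of whether the differences depend on the scaling. With median-of-ratios scaling 50.7% of tested genes had negative fold changes, against 70.2% for FPKM as deposited. The total behind FPKM as deposited also includes haemoglobin. With haemoglobin left out of that total, the median of all genes was 0.01 and 0 genes were called. Mt1 was then 1.40, Mt2A 1.32, Mtf1 -0.42, Slc30a1 -0.54 and Slc39a14 -0.74. With 1 library left out Mt3 lay between -1.42 (saline replicate 1 omitted) and 0.11 (without saline replicate 3). The number of called genes ranged from 0 to 160 with 1 library left out (160 without saline replicate 4; 1.34%) and was 51 without saline replicates 1 and 4 together; none of the 8 genes was among them. With the log2 of summed haemoglobin FPKM as a covariate, Mt1 was 1.25 ± 0.89, Mt2A 1.498 ± 1.00 and Mt3 -2.83 ± 1.97 (SE, limma adjusted p = 0.9999 each). Mt3 rested on few fragments in its lowest library, FeCl3 replicate 2 (20 fragments), and on 826 in its highest, saline replicate 3. The total of FeCl3 replicate 2, 27384378 fragments, lay within the range of the other libraries. No paired analysis was possible because the labels number samples differently in each group and share only 1 number.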

Other observations

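Genes of other metal and stress pathways did not pass limma's adjusted threshold either. Across all tested genes, 70.2% had negative fold changes and the median was -0.25. Among 8 tested iron genes 3 had positive fold changes, with a median of -0.38; the ferritin light chain Ftl1, an iron storage subunit, measured 3600, 2278, 4347 and 2417 FPKM in FeCl3 replicates 1 to 4, against 423, 820, 429 and 2229 FPKM in saline replicates 1 to 4 (log2 fold change 2.00 ± 0.56, SE; adjusted p = 0.245), and Fth1, the heavy chain, had 1.02 (adjusted p = 0.317). Saline replicate 4, the blood-rich control, was close to the lowest FeCl3 aorta for Ftl1. Of 10 tested copper genes 6 were negative (median -0.07); Sod1, the copper and zinc superoxide dismutase, had -0.09 (adjusted p = 0.932) and the copper exporter Atp7a -1.34 ± 0.52 (adjusted p = 0.270).

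The counts and medians of the next lists stand beside 70.2% negative and a median of -0.25 for all tested genes. Of 7 tested genes reported as MTF1 targets outside the metallothioneins, among them Slc30a1 and Slc39a10, 6 had negative fold changes (median -0.54). This list joins Slc30a1, which MTF1 raises, with Slc39a10, which it represses in mouse cells, so its count has no single expected direction. Csrp1 had -0.54 (adjusted p = 0.528) and Gclc, the catalytic subunit for glutathione synthesis, -1.05 ± 0.34 (adjusted p = 0.248). Of 9 tested glucocorticoid targets 6 were negative (median -0.58), with Dusp1 at 0.11 (adjusted p = 0.871) and Zbtb16 at -1.83 ± 0.71 (adjusted p = 0.272). The interleukin-6 and STAT3 list had 5 negative of 10 (median -0.05), with Cebpb at -0.50 (adjusted p = 0.732) and Serpina3n at 1.73 ± 0.93 (adjusted p = 0.368). In the NRF2 list 5 of 7 were negative (median -0.75), with Txn1 at 0.23 (adjusted p = 0.756) and Gclm at 1.53 ± 0.53 (adjusted p = 0.258). All 10 tested heat shock genes were negative (median -1.34), with Hspb1 at -1.71 (adjusted p = 0.456) and Hsph1 at -2.03 (adjusted p = 0.314), and saline replicate 1 held most of their saline signal.

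By Pearson r over the 8 libraries, the genes outside the 8 that were most like Mt2A were Rsrc2 (0.94), Cebpd (0.93), Nap1l1 (0.92), RGD1359508 (0.90) and Rdm1 (0.88), and those most like Mt1 were Dnase1l3 (0.92), Cxcl1 (0.91), RGD1359508 (0.90), Eif3f (0.90) and Serpina3n (0.90), given as a description; Mt1 and Mt2A had an r of 0.93 with each other. Cebpd, an acute-phase transcription factor, measured 40.1, 44.6, 8.89 and 35.6 FPKM in FeCl3 replicates 1 to 4, against 14.4, 11.8, 17.4 and 21.2 FPKM in saline replicates 1 to 4 (log2 fold change 0.77 ± 0.48, SE; limma adjusted p = 0.426). In FPKM as deposited, it was lowest of all 8 in FeCl3 replicate 3.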
